A study of Arabidopsis thaliana with 12 samples.

Results

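The nuclear genes for the proteins of the plant light reactions were followed across 2 genotypes and 2 temperatures in Arabidopsis thaliana seedlings. The genes were taken from a list of locus identifiers: LHCA (6 genes) and PSA (12 genes), which encode the antenna and the other nuclear subunits of photosystem I, and LHCB (14 genes) and PSB (10 genes), which encode those of photosystem II. All 42 were among the 33655 features of the deposited count table, and all 42 passed the filter on low counts, which kept 17841 genes. PSBS, a sensor of photoprotection in the photosystem II membrane, was counted with the PSB genes. Below, antenna means LHCA plus LHCB and core means PSA plus PSB.

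The series compares the warm response of spaQ, a line with mutations in the 4 SPA genes whose alleles the labels do not state, with that of Col-0, the wild-type accession. There were 4 groups of 3 libraries each: warm spaQ (28 °C), cool spaQ (22 °C), warm Col-0 (28 °C) and cool Col-0 (22 °C). Every library came from whole seedlings 6 days old, which had been cold stratified for 3 days on medium without sucrose. They were kept for 5 days under white light at 22 °C before the treatment. The light level given for all 12 libraries is 25 µmol. The labels give the length of the treatment in one place as 24 h and in another as 4 h. SPA proteins act with COP1 to mark light-signalling proteins for degradation.

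Light-harvesting proteins bind most of the chlorophyll of a leaf and pass the energy they absorb to photosystem II, which splits water, and to photosystem I, which reduces ferredoxin. The LHCB1, LHCB2 and LHCB3 proteins form the trimers of the main antenna, LHCB4 to LHCB6 link the trimers to the photosystem II core, and LHCA proteins form a belt on photosystem I. The reaction centre proteins themselves are encoded in the chloroplast, while the genes described here lie in the nucleus and are among the classic light-induced genes of plants.

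Libraries were made by 3′ Tag-Seq, which reads a tag near the 3′ end of each transcript, so a count does not grow with transcript length. Total counts ran from 2609808 to 9390725 per library, and levels are given as CPM (counts per 1000000, with library sizes scaled by TMM). SPA1 transcripts ran from 17.1 to 25.3 CPM in the 6 spaQ libraries and from 61.1 to 71.4 CPM in the 6 Col-0 libraries. SPA2 and SPA3 were also lower in spaQ at both temperatures, and SPA4 was higher (log2 fold change 1.32 at 28 °C and 1.19 at 22 °C). Replicate 2 of warm spaQ stood apart from its group: the chi-square of its counts per degree of freedom was 20.7 and 24.8 against the other replicates, which differed from each other by 5.88. The members lay on average 0.31 above their group mean (log2 CPM) in that library. Replicates are separate libraries, but the labels do not say whether they came from separate cultures, so the p-values measure the spread between these libraries.

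Seedling tissue was checked by markers. Transcripts of RBCS1A, RCA and CA1, which mark green tissue, summed to 24803 to 38154 CPM in warm spaQ, 39925 to 44332 CPM in cool spaQ, 11632 to 12587 CPM in warm Col-0 and 28050 to 30865 CPM in cool Col-0. The 14 root markers summed to 12.6 to 82.2, 38.4 to 85.6, 26.5 to 35.4 and 156 to 163 CPM in those groups, in the same order. Root signal was therefore highest in the cool Col-0 libraries. Within warm spaQ the 82.2 CPM came from replicate 2, the library that stood apart from its group. The mean log2 CPM of the root markers was 2.39 in that library, against -0.17 and 0.047 in replicates 1 and 3. Within cool spaQ the 85.6 CPM came from replicate 1. Whether root content accounts for the distance of replicate 2 of warm spaQ from its group was not tested. In whole seedlings, fewer cells of a type and less RNA per cell cannot be told apart.

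The 42 transcripts together took between 4.58% and 6.54% of all counts in warm spaQ, 5.38% to 6.42% in cool spaQ, 6.51% to 7.36% in warm Col-0 and 8.98% to 9.54% in cool Col-0. The group with the largest share was cool Col-0, whose libraries did not overlap those of any other group. Mean levels over all 12 libraries ran from 73.5 CPM for LHCA6 (AT1G19150), which links photosystem I to the NDH complex, to 6601 CPM for PSBR (AT1G79040), a lumenal subunit of photosystem II. LHCB4.3 (AT2G40100) and LHCA5 (AT1G45474) were also low, at 105 and 150 CPM, and the other 38 genes lay between 388 and 3497 CPM.

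Several members belong to tight gene families, and their upstream sequences are given first because members of the same family moved in different ways. LHCB1.1, LHCB1.2 and LHCB1.3 are neighbours in the genome, as are LHCB1.4 and LHCB1.5. The lines give the 150 bases immediately upstream of the annotated gene start, 5′ to 3′ on the strand of the gene, from RefSeq's TAIR10.1 assembly. Capitals mark the motifs searched on both strands: the G-box CACGTG, the I-box GATAAG, the CCAAT-type motif CCAATC and the CCA1-binding site AAAAATCT.
LHCB1.1 (AT1G29920): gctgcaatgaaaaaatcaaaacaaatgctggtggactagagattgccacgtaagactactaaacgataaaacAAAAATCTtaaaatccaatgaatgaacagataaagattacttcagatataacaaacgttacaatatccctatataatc
LHCB1.2 (AT1G29910): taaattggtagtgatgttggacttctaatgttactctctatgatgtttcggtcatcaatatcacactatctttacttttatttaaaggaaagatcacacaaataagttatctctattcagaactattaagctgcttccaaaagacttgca
LHCB1.3 (AT1G29930): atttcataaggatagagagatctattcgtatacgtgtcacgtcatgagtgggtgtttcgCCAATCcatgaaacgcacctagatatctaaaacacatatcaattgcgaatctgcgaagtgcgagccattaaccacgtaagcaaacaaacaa
LHCB1.4 (AT2G34430): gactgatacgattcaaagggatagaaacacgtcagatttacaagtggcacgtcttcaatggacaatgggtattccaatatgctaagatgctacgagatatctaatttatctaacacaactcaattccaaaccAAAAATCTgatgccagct
LHCB1.5 (AT2G34420): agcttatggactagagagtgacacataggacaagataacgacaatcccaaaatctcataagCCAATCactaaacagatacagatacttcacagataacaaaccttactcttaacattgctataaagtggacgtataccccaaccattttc
LHCB4.1 (AT5G01530): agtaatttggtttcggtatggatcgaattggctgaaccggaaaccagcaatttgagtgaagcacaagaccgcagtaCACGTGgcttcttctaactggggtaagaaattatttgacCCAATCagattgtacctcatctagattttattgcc
LHCB4.2 (AT3G08940): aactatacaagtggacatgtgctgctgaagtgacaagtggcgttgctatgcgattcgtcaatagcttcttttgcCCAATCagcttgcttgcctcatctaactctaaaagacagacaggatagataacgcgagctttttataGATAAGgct
LHCB4.3 (AT2G40100): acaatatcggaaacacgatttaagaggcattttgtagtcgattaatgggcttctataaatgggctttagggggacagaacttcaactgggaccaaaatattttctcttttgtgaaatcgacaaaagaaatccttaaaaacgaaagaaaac
LHCB1.1 and LHCB1.4 hold the CCA1-binding site, which starts 78 and 18 bases upstream of the gene. LHCB1.3, LHCB1.5, LHCB4.1 and LHCB4.2 hold the CCAAT-type motif, and no searched motif lies in the printed stretch of LHCB1.2 or LHCB4.3.

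Over the 250 bases upstream of all 42 members, CCAATC occurred in 11 (26.2%), against 10.2% of 27443 promoters of the same length. Of these 11 genes 7 were LHCB, 3 were LHCA and 1 was PSB, and the PSA genes had 0 of 12. CACGTG, the core of the G-box that light-regulated basic transcription factors bind, occurred in 8 members (19.0%, against 6.5% of promoters). GATAAG occurred in 9 (21.4%, against 12.3%) and AAAAATCT in 5 (11.9%, against 6.7%). AACAATCT, another CCA1-binding site, occurred in 1 member (2.4%, against 1.8% of promoters). The evening element AAATATCT also occurred in 1 member (2.4%), below its share of 4.8% over all promoters. A match is a description of these letters and not evidence that a factor binds.

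In Col-0 nearly the whole set was lower at the higher temperature. Of the 42 members 35 fell at 28 °C relative to 22 °C and 1 rose, where 21.9% of all tested genes fell and 18.9% rose (edgeR's quasi-likelihood test, Benjamini-Hochberg adjusted p under 0.05). The median log2 fold change of the members was -0.67, against -0.023 for all genes. For 39 members the 28 °C libraries lay below all 22 °C libraries, a count that was not made over all genes. All 12 PSA genes fell (median -0.66), as did 9 of 10 PSB genes (median -0.72), 10 of 14 LHCB genes (median -0.64) and 4 of 6 LHCA genes (median -0.41). With library totals in place of TMM, 25 members fell and 1 rose: 8 PSA, 8 PSB, 7 LHCB and 2 LHCA genes fell. The member median was then -0.45 and the median of all genes 0.19, and the higher genes made up 68.3% of all calls, against 46.3% with TMM.

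The strongest falls were in the trimer genes of the photosystem II antenna. LHCB1.4 (AT2G34430) had 433, 303 and 476 CPM in warm Col-0, against 1821, 1742 and 1647 CPM at 22 °C. The highest warm library was thus far below the lowest cool one, and the log2 fold change was -2.10 (SE 0.41, edgeR adjusted p 0.0015). LHCB2.3 (AT3G27690) had 239, 177 and 337 CPM at 28 °C and 971, 793 and 831 CPM at 22 °C, a log2 fold change of -1.78 (SE 0.31, edgeR adjusted p 0.00065). LHCB1.3 (AT1G29930), the most abundant antenna transcript of the series, had 2346, 2122 and 2685 CPM at 28 °C and 6852, 6569 and 5737 CPM at 22 °C. The groups did not overlap. Its log2 fold change was -1.42 (SE 0.20, edgeR adjusted p 0.00019). The 3′ end of LHCB1.3 shares 18.6% of its 50-base stretches with other genes, and LHCB1.3 and LHCB2.3 each overlap a gene of the opposite strand, so their counts are uncertain.

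LHCB1.5 (AT2G34420) went the other way and was the 1 member that rose in Col-0. It had 3433, 2959 and 3408 CPM at 28 °C, against 2225, 2045 and 1785 CPM at 22 °C, without overlap (log2 fold change 0.69, SE 0.18, edgeR adjusted p 0.0086). LHCB1.5 overlaps 2 genes on the other strand in the annotation and shares 7.1% of the 50-base stretches of its 3′ end with other genes, and the strand setting of the counting is not given in the sources used here. When LHCB1.4 and LHCB1.5 were summed, the warm difference in Col-0 was -0.033 (edgeR adjusted p 0.90), while LHCB1.1 to LHCB1.3 summed fell by 1.21 on the log2 scale.

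The core subunits covered a narrower range than the LHCB genes. Among PSA genes the estimates ran from -1.25 for PSAN (AT5G64040), a lumenal subunit, to -0.30 for PSAE2 (AT2G20260), a subunit on the ferredoxin side. PSAE2 had an edgeR adjusted p of 0.037, and passed the threshold in 4 of the 12 fits that each left out 1 library. PSAF (AT1G31330), where plastocyanin docks, fell by 1.06. Among PSB genes, the oxygen-evolving complex genes PSBQ1 (AT4G21280) and PSBO2 (AT3G50820) had log2 fold changes of -1.03 and -0.95. PSBR was the 1 PSB gene that did not pass the test, at 5696, 5253 and 5244 CPM at 28 °C and 5400, 5573 and 5570 CPM at 22 °C. The antenna genes LHCA1, LHCA4, LHCB2.1, LHCB4.2 and LHCB4.3 did not pass it either, with estimates between -0.14 and -0.41.

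In the same contrast all 13 tested root markers fell (median -4.38), as did all 3 green tissue markers (median -1.36). The mean log2 CPM of the root markers ran from 0.28 to 0.82 in warm Col-0 and from 3.25 to 3.30 at 22 °C. With this score as a covariate 5 members were called (median log2 fold change -0.34). Over all genes 1344 of 17841 were then called, against 7283 without it. In Col-0 the score separates the same libraries as the temperature, so root signal and temperature cannot be told apart there.

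**Figure D1:**
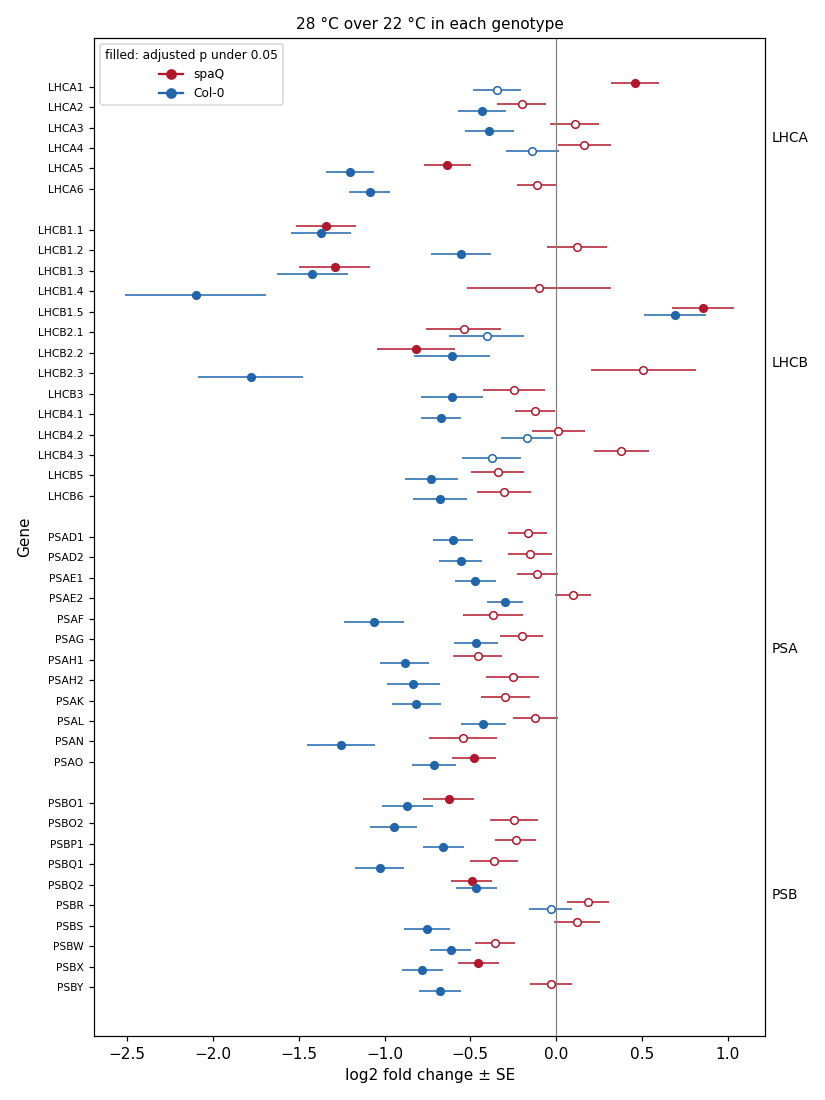
Log2 fold change at 28 °C over 22 °C for each of the 42 members, grouped by family, in spaQ (red) and Col-0 (blue). Bars are the standard error of the edgeR fit over all 12 libraries and filled points have an adjusted p under 0.05. In spaQ 31 of 42 estimates lie below 0, and in Col-0 41 do.

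In spaQ fewer members passed the test of the warm response, and their number depended on single libraries. At 28 °C, 8 members fell and 2 rose relative to 22 °C, where 5.87% of all tested genes fell and 6.55% rose. The median log2 fold change was -0.22, against 0.018 for all genes. Leaving out replicate 2 of warm spaQ, 23 members fell and 1 rose (median -0.42), and without replicate 1 of cool spaQ 3 fell and 1 rose. With the 6 spaQ libraries fitted alone 2 members were called, LHCB1.1 and LHCB1.3, both lower. Calls over all genes moved as well, from 2217 of 17841 in the main fit to 4024 of 18171, 1088 of 18185 and 418 of 15850, in the same order.

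LHCB1.1 (AT1G29920) and LHCB1.3 fell in spaQ as in Col-0, where LHCB1.1 had a log2 fold change of -1.37. LHCB1.1 had 834, 872 and 616 CPM in warm spaQ and 2343, 1555 and 1998 CPM at 22 °C, a log2 fold change of -1.34 (SE 0.18, edgeR adjusted p 0.00077). LHCB1.3 had 1258, 1659 and 841 CPM at 28 °C and 3315, 2667 and 3222 CPM at 22 °C, a log2 fold change of -1.29 (SE 0.20, edgeR adjusted p 0.0023). For both genes each warm library was below each cool one. LHCB2.2 (AT2G05070), another trimer gene, had 162, 215 and 94.2 CPM at 28 °C and 324, 259 and 246 CPM at 22 °C. Its log2 fold change of -0.82 (SE 0.23, edgeR adjusted p 0.034) did not pass the threshold when replicate 1 or 3 of warm spaQ, 1 or 2 of cool spaQ or 3 of cool Col-0 was left out (adjusted p between 0.051 and 0.13). LHCB2.2 shares 28.4% of the 50-base stretches of its 3′ end with other genes, and summed with its neighbour LHCB2.1 it did not pass the threshold at 28 °C relative to 22 °C in spaQ (-0.62, adjusted p 0.084) or in Col-0 (-0.49, adjusted p 0.090).

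LHCB1.5 rose in spaQ as well, to 3077, 3583 and 2224 CPM at 28 °C, against 1587, 1340 and 1976 CPM at 22 °C (log2 fold change 0.86, SE 0.18, edgeR adjusted p 0.010). With the spaQ libraries fitted alone its adjusted p was 0.099. LHCA1 (AT3G54890), a belt protein of photosystem I, had 1733, 2157 and 1530 CPM at 28 °C and 1413, 1162 and 1365 CPM at 22 °C. The warm libraries lay above the cool ones, with a log2 fold change of 0.46 (SE 0.14) and an edgeR adjusted p of 0.046 that was above the threshold when any of 11 libraries was left out, and was 0.23 with the spaQ libraries fitted alone. The other members that fell were LHCA5, PSAO, PSBO1, PSBQ2 and PSBX, with log2 fold changes between -0.63 and -0.45. LHCA5 passed the threshold whichever single library was left out, but not with the spaQ libraries fitted alone (adjusted p 0.084), and each of the others missed it without 1 or more of the spaQ libraries.

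The difference between the warm responses of the genotypes was tested directly, as the spaQ response less the Col-0 response. It was higher in 9 members, while the other 33 did not pass the test, where 6.58% of all tested genes were higher and 5.29% lower. For 39 of the 42 members the estimate was above 0 (median 0.40, against 0.058 for all genes), and the count of calls ran from 2 to 19 with single libraries left out. It was 2 without replicate 1 or replicate 2 of cool Col-0, 19 without replicate 3 of warm spaQ and 4 without replicate 2 of that group. Over all genes 928, 885, 2838 and 1751 were called in these fits, in the same order. With library totals in place of TMM, 3 members were higher, the median of all genes was -0.12, and the higher genes made up 25.6% of all calls, against 55.5% with TMM. When the root marker score entered the fit as a covariate, 2 members were higher, LHCA6 and LHCB2.3, and the member median was 0.13, against 0.046 for all genes. Calls over all genes were 753 with the covariate and 2117 without it.

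The largest differences were again in trimer genes. LHCB2.3 had 232, 354 and 183 CPM in warm spaQ and 264, 148 and 126 CPM in cool spaQ, groups that overlap, while in Col-0 it fell strongly. The response of spaQ exceeded that of Col-0 by 2.29 (SE 0.43, edgeR adjusted p 0.0080). LHCB1.4 had 70.1, 130 and 21.5 CPM in warm spaQ and 72.0, 77.0 and 90.9 CPM in cool spaQ, a low level at both temperatures. Its difference of 2.0 (SE 0.58) had an edgeR adjusted p of 0.042, and the adjusted p lay between 0.053 and 0.10 when any single library was left out, except replicate 3 of warm spaQ. Without replicate 2 of warm spaQ the difference was 1.2. Summed with LHCB1.5 the difference was 0.86 (edgeR adjusted p 0.048). LHCA6 had 70.9, 94.9 and 80.7 CPM in warm spaQ and 96.0, 82.8 and 87.6 CPM in cool spaQ, against 41.6, 37.5 and 38.6 CPM in warm Col-0 and 83.5, 80.5 and 86.8 CPM in cool Col-0. Only warm Col-0 was low, and the difference of the responses was 0.98 (SE 0.17, edgeR adjusted p 0.0053).

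The other members with a higher response in spaQ were LHCA1, LHCB4.1, PSBO2, PSBQ1, PSBS and PSBY, with differences between 0.55 and 0.88. Each of these 6 and LHCB1.4 missed the threshold without 1 or more of the 12 libraries, while LHCA6 and LHCB2.3 passed it whichever was left out. The estimates of the 12 PSA genes lay between 0.24 and 0.71, with edgeR adjusted p between 0.087 and 0.44. LHCB1.1 and LHCB1.3 had differences of 0.025 (SE 0.24) and 0.13 (SE 0.28).

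**Figure D2:**
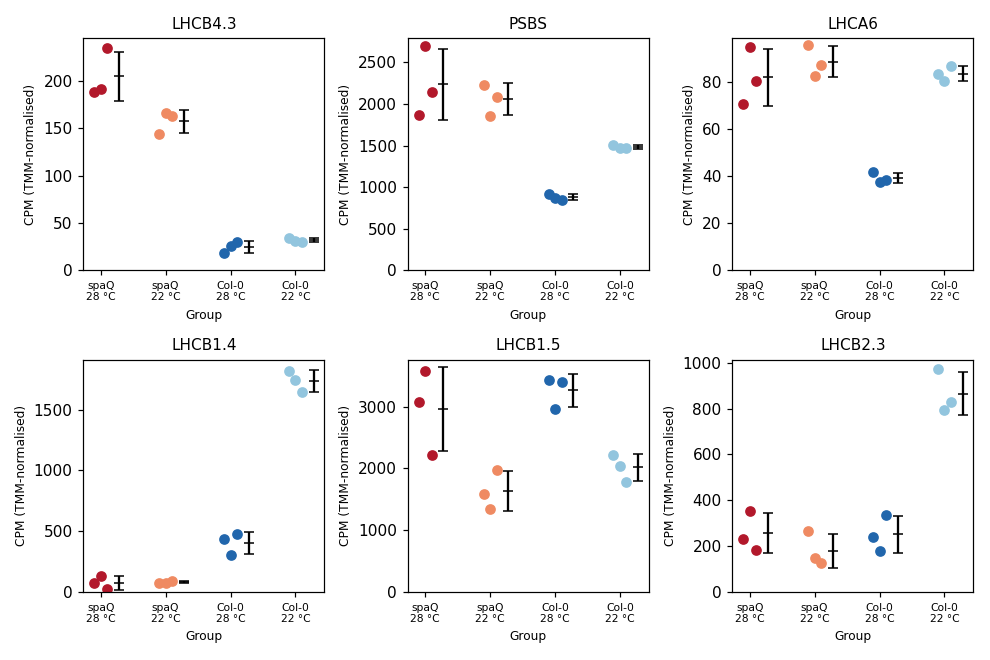
CPM in every library for LHCB4.3, PSBS, LHCA6, LHCB1.4, LHCB1.5 and LHCB2.3 in the 4 groups of 3 libraries, with the mean and SD beside the points. LHCB4.3 is high in both spaQ groups, LHCB1.4 and LHCB2.3 are high in cool Col-0, LHCB1.5 is higher at 28 °C in both genotypes, and LHCA6 is low in warm Col-0.

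At 22 °C most members were lower in spaQ than in Col-0. Of the 42, 28 were lower and 3 higher, where 21.7% of all tested genes were lower and 20.7% higher. The median log2 fold change was -0.57, against -0.052 for all genes. Of the families, 11 of 14 LHCB genes (median -1.09), 4 of 6 LHCA genes (median -0.73) and 11 of 12 PSA genes (median -0.62) were lower, but of the 10 PSB genes 2 were lower and 2 higher (median -0.10). In the same contrast 6 of 13 root markers were lower and 1 higher, and the 3 green tissue markers were higher. When the root marker score entered the fit as a covariate, 21 members were lower and 4 higher, and the median log2 fold change was -0.37. Over all genes 4356 of 17841 were called with the covariate and 7574 without it. The score ran from 0.77 to 2.45 in cool spaQ and from 3.25 to 3.30 in cool Col-0. At 22 °C it separates the same libraries as the genotype, so root signal and genotype cannot be told apart there.

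LHCB1.4 had the largest deficit. With 72.0, 77.0 and 90.9 CPM in spaQ and 1821, 1742 and 1647 CPM in Col-0, its log2 fold change was -4.44 (SE 0.46, edgeR adjusted p 1.6e-05). LHCB1.2 (AT1G29910) had 487, 346 and 406 CPM in spaQ and 2384, 2037 and 1753 CPM in Col-0, a log2 fold change of -2.31 (SE 0.18, edgeR adjusted p 2.7e-06). Its 3′ end shares 10.2% of its 50-base stretches with other genes, and that of LHCB1.4 shares 4.2%. LHCB2.3, with 264, 148 and 126 CPM in spaQ and 971, 793 and 831 CPM in Col-0, had a log2 fold change of -2.26 (SE 0.32, edgeR adjusted p 0.00014). For the sum of LHCB1.1 to LHCB1.3 the log2 fold change was -1.1, and for LHCB1.4 with LHCB1.5 it was -1.13.

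LHCB4.3, the third copy of the minor antenna protein CP29, was the 1 antenna gene that passed the test as higher in spaQ at 22 °C. It had 144, 166 and 163 CPM in cool spaQ, against 33.8, 31.3 and 29.8 CPM in Col-0, which is 4.99-fold higher (log2 fold change 2.32, SE 0.17, edgeR adjusted p 1.7e-06). PSBS (AT1G44575), whose protein triggers the dissipation of excess light as heat, had 2232, 1850 and 2090 CPM in spaQ and 1509, 1465 and 1465 CPM in Col-0. Its log2 fold change was 0.48 (SE 0.13, edgeR adjusted p 0.012). PSBR had 7362, 6319 and 8062 CPM in spaQ and 5400, 5573 and 5570 CPM in Col-0 (log2 fold change 0.39, SE 0.13, edgeR adjusted p 0.023), and its adjusted p lay between 0.059 and 0.073 without replicate 3 of cool spaQ, or replicate 1 or 3 of cool Col-0. Every spaQ library lay above every Col-0 library for these 3 genes. PSBR overlaps a gene of the opposite strand. LHCA5 also had every spaQ library above every Col-0 library, with a log2 fold change of 0.35 and an edgeR adjusted p of 0.055, which was 0.041 with DESeq2 size factors, and LHCA6 had an estimate of 0.089.

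At 28 °C most LHCB genes were again lower in spaQ, and PSB genes were more often higher than lower. In spaQ 14 members were lower than in Col-0 and 8 higher, where 13.5% of all tested genes were lower and 17.4% higher, and the median log2 fold change was -0.16, against 0.029 for all genes. With library totals in place of TMM, 22 were lower and 4 higher, the median of all genes was -0.23, and the higher genes made up 28.4% of all calls, against 56.2% with TMM. Of the LHCB genes 9 were lower and 1 higher (median -0.73), while of the PSB genes 1 was lower and 5 were higher (median 0.35; with library totals 1 was lower and 1 higher, median 0.086). Among the PSA genes 2 were lower, PSAD2 and PSAO, and 10 did not pass the test. PSAO had an edgeR adjusted p of 0.012, and 0.050 without replicate 3 of warm Col-0. With library totals 9 were lower. Without replicate 2 of warm spaQ 23 members were lower and 7 higher. Calls over all genes then went from 5519 of 17841 to 6346 of 18171. When the root marker score entered the fit as a covariate, 20 members were lower and 10 higher, with 6858 of 17841 genes called. At 28 °C 1 root marker and all 3 green tissue markers were higher in spaQ.

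LHCB4.3 again stood highest above Col-0, with 188, 192 and 235 CPM in warm spaQ and 17.9, 25.9 and 29.5 CPM in Col-0, which is 8.42-fold higher (log2 fold change 3.07, SE 0.17, edgeR adjusted p 2.0e-07). PSBS had 1865, 2704 and 2146 CPM in spaQ and 918, 867 and 844 CPM in Col-0 (log2 fold change 1.35, SE 0.14, edgeR adjusted p 1.3e-05). For LHCA6 the log2 fold change was 1.07 (SE 0.12, edgeR adjusted p 2.8e-05). LHCA5, which like LHCA6 serves the link to the NDH complex, had 136, 166 and 116 CPM in spaQ and 76.0, 67.6 and 76.7 CPM in Col-0, a log2 fold change of 0.92. In the annotation LHCA5 runs over part of a gene of the opposite strand. The remaining members higher in spaQ were PSBR, PSBO2, PSBY and PSBQ1, with log2 fold changes of 0.61, 0.59, 0.46 and 0.40. PSBY had an edgeR adjusted p of 0.012, and 0.059 without replicate 2 of warm Col-0.

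On the lower side, LHCB1.4 had 70.1, 130 and 21.5 CPM in warm spaQ and 433, 303 and 476 CPM in Col-0 (log2 fold change -2.44, SE 0.43, edgeR adjusted p 0.00083). Summed with LHCB1.5 its log2 fold change was -0.27 (edgeR adjusted p 0.29). LHCB1.2 had 442, 553 and 355 CPM in spaQ and 1435, 1277 and 1491 CPM in Col-0, a log2 fold change of -1.64 (SE 0.18, edgeR adjusted p 2.5e-05). For both LHCB1.4 and LHCB1.2 every spaQ library lay below every Col-0 library. LHCB2.2 had 162, 215 and 94.2 CPM in spaQ and 468, 415 and 471 CPM in Col-0 (log2 fold change -1.52, SE 0.23, edgeR adjusted p 0.00027). Summed with LHCB2.1 it had a log2 fold change of -0.94 (edgeR adjusted p 0.0059).

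PSBQ2 (AT4G05180), a subunit of the oxygen-evolving complex, was the 1 PSB gene that was lower in warm spaQ than in warm Col-0. It had 380, 391 and 331 CPM in spaQ and 606, 678 and 769 CPM in Col-0 (log2 fold change -0.90, SE 0.12, edgeR adjusted p 0.00012), and at 22 °C its log2 fold change was -0.87. Its copy PSBQ1 had 785, 1032 and 712 CPM in warm spaQ and 635, 572 and 707 CPM in Col-0 (log2 fold change 0.40, SE 0.14, edgeR adjusted p 0.044). PSBQ1 missed the threshold in 8 of the 12 fits that each left out 1 library, and without replicate 2 of warm spaQ its log2 fold change was 0.20 (adjusted p 0.18).

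**Figure D3:**
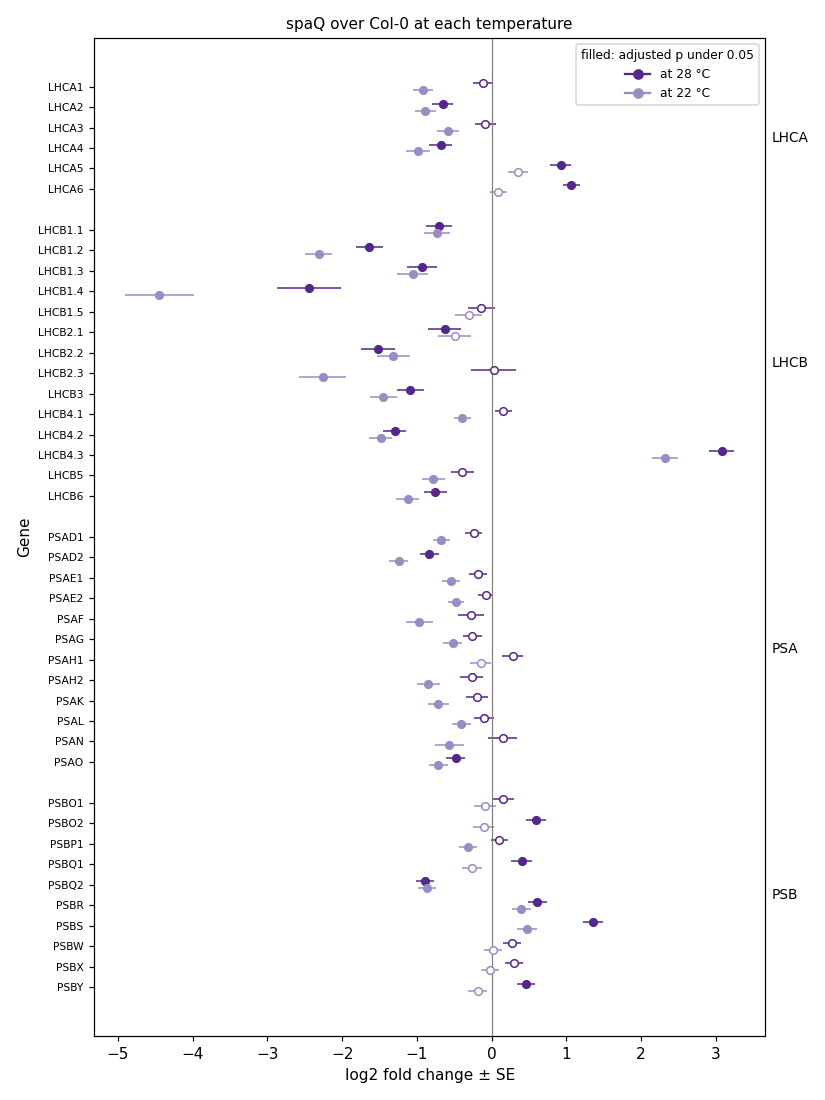
Log2 fold change of spaQ over Col-0 for each member at 28 °C (dark) and 22 °C (light), with the standard error of the edgeR fit, and filled points for an adjusted p under 0.05. Most LHCA, LHCB and PSA genes lie below 0 at 22 °C, LHCB4.3 lies far above 0 at both temperatures, and 9 of the 10 PSB genes lie above 0 at 28 °C.

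The balance between the classes was summarised by ratios of summed CPM in each library. LHCB transcripts summed to 12576 ± 2807 CPM in warm spaQ, 15455 ± 1656 CPM in cool spaQ, 18904 ± 1903 CPM in warm Col-0 and 31549 ± 2651 CPM in cool Col-0 (SD, n = 3). PSB transcripts summed to 22575 ± 3288 CPM in warm spaQ, 25086 ± 2155 CPM in cool spaQ, 16770 ± 659 CPM in warm Col-0 and 24444 ± 84.4 CPM in cool Col-0 (SD, n = 3). In spaQ the PSB sum thus exceeded the LHCB sum in each group mean, and in Col-0 the LHCB sum was the larger.

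The log2 ratio of antenna to core was -0.95 ± 0.11 in warm spaQ, -0.98 ± 0.056 in cool spaQ, -0.30 ± 0.040 in warm Col-0 and -0.30 ± 0.091 in cool Col-0 (SD, n = 3). It was lower in spaQ than in Col-0 by 0.65 at 28 °C and by 0.69 at 22 °C, more than the spread between libraries and without overlap. Between 28 °C and 22 °C the libraries overlapped in both genotypes, with differences of 0.031 in spaQ and -0.00073 in Col-0. With 3 libraries against 3, the smallest two-sided p of an exact permutation test is 0.1, so no p is given for these ratios.

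The log2 ratio of photosystem I to photosystem II was -0.72 ± 0.026 in warm spaQ, -0.77 ± 0.027 in cool spaQ, -0.48 ± 0.0095 in warm Col-0 and -0.55 ± 0.057 in cool Col-0 (SD, n = 3). It was lower in spaQ by 0.24 at 28 °C and by 0.22 at 22 °C when transcripts were summed, and by 0.43 and 0.44 when LHCB1 and LHCB2 were left out. It was higher at 28 °C than at 22 °C by 0.053 in spaQ and by 0.076 in Col-0, without overlap, and these differences were 0.011 and -0.00066 when LHCB1 and LHCB2 were left out. When each gene was given the same weight, as the mean of log2 CPM, it was 0.11 higher in spaQ at both temperatures, so the direction of this ratio depends on the weighting. Within photosystem I, the LHCA to PSA ratio was -1.11 ± 0.043 in warm spaQ, -1.52 ± 0.044 in cool spaQ, -0.99 ± 0.059 in warm Col-0 and -1.36 ± 0.027 in cool Col-0 (SD, n = 3). The summed ratio was higher at 28 °C by 0.41 in spaQ and by 0.38 in Col-0, without overlap, and with equal weights for each gene by 0.22 and 0.10. It was lower in spaQ by 0.13 at 28 °C and by 0.16 at 22 °C, but with equal weights it was 0.28 and 0.16 higher. LHCA5 and LHCA6, the least abundant LHCA genes, fell in Col-0 with log2 fold changes of -1.20 and -1.09, below the PSA median.

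**Figure D4:**
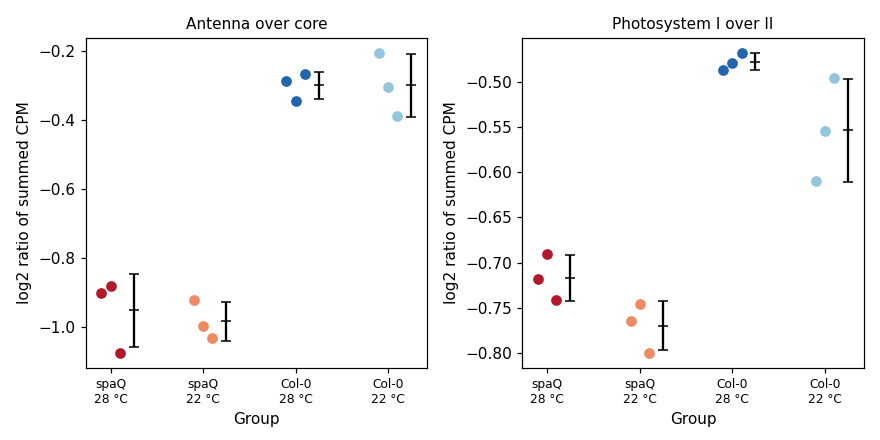
Log2 ratio of summed CPM of antenna over core genes (left) and of photosystem I over photosystem II genes (right) in each library of the 4 groups, with mean and SD. The antenna to core ratio of the spaQ libraries lies between -1.08 and -0.88 and that of the Col-0 libraries between -0.39 and -0.21.

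Within families, the copies took different shares of the family's CPM in the 4 groups. LHCB1.5 made up 53.9 ± 1.08% of LHCB1 transcripts in warm spaQ, 22.8 ± 2.70% in cool spaQ, 37.5 ± 1.23% in warm Col-0 and 13.1 ± 0.12% in cool Col-0 (SD, n = 3). No library of 1 group overlapped another, and the share was higher at 28 °C in each genotype and higher in spaQ at each temperature. LHCB1.4 made up 1.23 ± 0.69% in warm spaQ, 1.13 ± 0.19% in cool spaQ, 4.59 ± 0.62% in warm Col-0 and 11.3 ± 0.62% in cool Col-0 (SD, n = 3). LHCB1.3 held 22.4 ± 1.86% in warm spaQ and 27.3 ± 1.1% in warm Col-0, against 43.0 ± 1.4% in cool spaQ and 41.3 ± 0.64% in cool Col-0 (SD, n = 3).

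**Figure D5:**
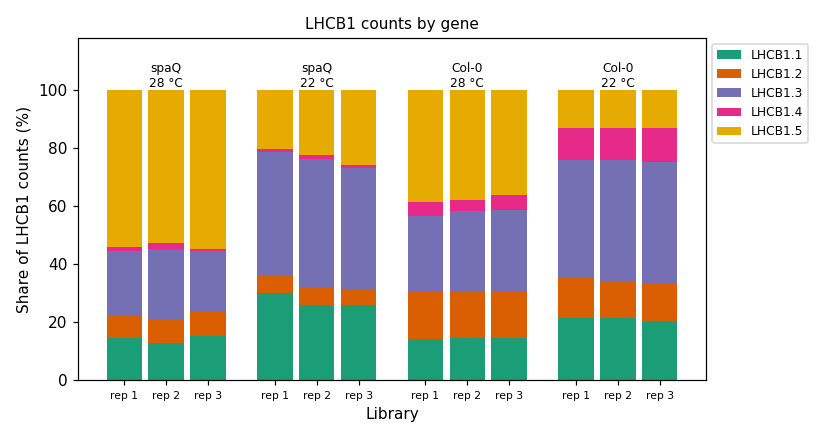
Share of the summed LHCB1 CPM (%) held by each of the 5 LHCB1 genes in every library. LHCB1.5 is the largest share in all 6 libraries at 28 °C, LHCB1.3 is the largest in both groups at 22 °C, and LHCB1.4 is visible mainly in Col-0.

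LHCB4.3 made up 8.41 ± 1.94% of LHCB4 transcripts in warm spaQ, 6.10 ± 0.83% in cool spaQ, 0.95 ± 0.21% in warm Col-0 and 0.85 ± 0.0041% in cool Col-0 (SD, n = 3). Its copy LHCB4.2 held 13.3 ± 1.34% in warm spaQ, 12.6 ± 1.0% in cool spaQ, 31.6 ± 1.11% in warm Col-0 and 24.6 ± 1.03% in cool Col-0 (SD, n = 3). LHCB4.1 was the main CP29 transcript in every group. LHCB4.2 overlaps a gene of the opposite strand in the annotation, so its counts are uncertain.

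In 4 further families the share of a copy did not overlap between the genotypes at either temperature, while in the PSAE and PSBO families the shares overlapped at 22 °C. Shares were not compared in this way for gene families outside the members. LHCB2.2 held 18.1% to 19.6% of LHCB2 in warm spaQ, against 32.9% to 36.0% in warm Col-0, and 26.3% to 26.7% in cool spaQ, against 28.5% to 29.0% in cool Col-0. LHCB2.3 held 28.2% to 35.2% in warm spaQ, against 15.4% to 23.5% in warm Col-0, and 13.6% to 21.5% in cool spaQ, against 35.7% to 36.9% in cool Col-0. The share of LHCB2.3 was thus higher in spaQ at 28 °C and lower in spaQ at 22 °C. PSBQ2 held between 27.5% and 32.6% of PSBQ in warm spaQ, against 48.8% to 54.2% in warm Col-0, and 31.0% to 33.2% in cool spaQ, against 40.3% to 43.7% in cool Col-0. PSAD2 (AT1G03130), a ferredoxin-docking subunit of photosystem I, held 16.3% to 17.1% of PSAD in warm spaQ, against 22.0% to 24.9% in warm Col-0, and 15.8% to 17.2% in cool spaQ, against 22.6% to 23.1% in cool Col-0. PSAH1 (AT3G16140), which takes part in docking the mobile antenna, held 50.6 ± 0.79% of PSAH in warm spaQ (SD, n = 3), against 40.7% to 41.7% in warm Col-0, and 53.0% to 55.4% in cool spaQ, against 41.8% to 42.1% in cool Col-0. For LHCB4.3 and these copies the spaQ libraries did not overlap the Col-0 libraries at either temperature. PSAD2 overlaps a gene on the same strand in the annotation, and PSAH1 and PSAH2 each overlap a gene of the opposite strand. Their shares are therefore uncertain.

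Other genes of the pathway were counted from lists of 4 kinds. Of 13 genes of the electron transport chain and ATP synthase, 3 fell and 2 rose at 28 °C in spaQ, and 9 fell and 1 rose in Col-0. At 28 °C 11 of the 13 were higher in spaQ than in Col-0 and 1 was lower (median log2 fold change 0.74), and at 22 °C 5 were higher and 1 lower (median 0.25). With library totals 9 were higher and 1 lower at 28 °C, and 2 were higher and 2 lower at 22 °C. The warm response was higher in spaQ for 9 of the 13, and for 3 with library totals. FD2 (AT1G60950), the main leaf ferredoxin, had 659, 628 and 890 CPM in warm Col-0 and 3535, 3359 and 3588 CPM at 22 °C (log2 fold change -2.27, SE 0.25, edgeR adjusted p 3.8e-05). PGRL1B (AT4G11960), of cyclic electron flow, rose in spaQ to 115, 90.7 and 111 CPM at 28 °C, against 30.8, 29.9 and 43.4 CPM at 22 °C. Its log2 fold change was 1.62 in spaQ and 1.60 in Col-0. PETE1 (AT1G76100), the minor plastocyanin, was the 1 gene of the list lower in spaQ, with a log2 fold change of -0.75 at 28 °C and -1.97 at 22 °C.

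Of 8 genes for photosystem assembly and repair, 5 fell in warm Col-0 and all 8 were higher in warm spaQ than in warm Col-0 (median log2 fold change 1.16), with 6 of 8 higher under library totals. At 22 °C 3 were higher. PSB28 (AT4G28660), a photosystem II assembly factor, had 316, 433 and 288 CPM in warm spaQ and 102, 84.8 and 96.2 CPM in Col-0 (log2 fold change 1.87, SE 0.15, edgeR adjusted p 2.1e-06). The 4 genes that target LHC proteins to the thylakoid all fell in warm Col-0, among them CPSRP54 (AT5G03940, log2 fold change -1.21), and in spaQ their median was -0.34, with edgeR adjusted p between 0.066 and 0.22.

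Among 7 regulators of chloroplast gene expression, GLK1 (AT2G20570), a transcription factor that activates light-harvesting genes, was the 1 that was lower in spaQ at either temperature, where 5 were higher at 28 °C and 2 at 22 °C. With library totals 3 were higher and 2 lower at 28 °C. GLK1 had 21.4, 15.2 and 22.1 CPM in warm spaQ and 67.9, 57.3 and 62.6 CPM in warm Col-0 (log2 fold change -1.70, SE 0.14, edgeR adjusted p 3.3e-06). At 22 °C it had 21.0, 23.0 and 23.8 CPM in spaQ and 51.6, 45.8 and 48.3 CPM in Col-0 (log2 fold change -1.11, SE 0.14, edgeR adjusted p 7.8e-05). In Col-0 GLK1 rose by 0.37 at 28 °C on the log2 scale (edgeR adjusted p 0.036). Its calls were not examined with single libraries left out. GLK2 (AT5G44190) had a mean of 97.6 CPM in warm spaQ and 123 CPM in warm Col-0. At 22 °C its means were 80.9 CPM in spaQ and 108 CPM in Col-0. Whether the level of GLK1 or GLK2 bears on the members was not tested. SIG5 (AT5G24120), a light- and stress-responsive sigma factor of the plastid RNA polymerase, had 152, 166 and 142 CPM in warm spaQ and 32.1, 34.9 and 29.5 CPM in warm Col-0. Its log2 fold change was 2.26 at 28 °C and 2.38 at 22 °C (SE 0.12 for both, edgeR adjusted p 1.5e-07 and 1.7e-07).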

How the data were processed

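Per the labels' protocols, RNA of whole seedlings was made into 3′ Tag-Seq libraries. The authors deposited 1 table of raw read counts, with a row for each gene and a column for each library; FastQC, Bowtie2, TopHat, HTSeq and edgeR appear in the submitters' processing notes. Versions, genome build, annotation and strand setting are not given in the sources used here. The 5 summary lines that end the table and 24 unnamed columns were not used; ambiguous reads came to 0.453% to 0.616% of a library. Genes were filtered with edgeR 4.0.16 (R 4.3.3) filterByExpr (minimum count 10), scaled with TMM and tested with glmQLFit and glmQLFTest, with 1 coefficient per group over 12 libraries. Tests were two-sided, with Benjamini-Hochberg adjustment over all 17841 genes and a threshold of 0.05; the procedure was checked on simulated data. A floor of 3 counts, 0.319 to 1.15 CPM per library, covers counting error only. The members and the gene lists were chosen with earlier results of these data known. Members given library by library are the 3 highest and 3 lowest called log2 fold changes of each contrast (mean of at least 10 CPM), any called against its family, and the paralogue families. Upstream sequences came from RefSeq's TAIR10.1, in which all 42 identifiers matched. In that annotation 16 members overlap a gene on the other strand and 2 a gene on the same strand, and 6 share 50-base stretches of their last 500 bases with another gene, so their counts are uncertain. Alternatives were DESeq2 1.42.0 and its size factors, library totals, other filters, fits of the compared libraries alone, a replicate block, a root marker covariate, summed copies and leaving out each library.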

Additional observations from a re-analysis of the deposited data

Results flagged for a closer look

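For 9 members and 7 of the named pathway genes the warm response of spaQ differed from that of Col-0 by the test of the difference itself (log2 scale, spaQ response less Col-0 response, edgeR adjusted p under 0.05 over all genes). Among the antenna genes the differences were 0.80 for LHCA1, 0.98 for LHCA6, 2.0 for LHCB1.4, 2.29 for LHCB2.3 and 0.55 for LHCB4.1. Among the PSB genes they were 0.70 for PSBO2, 0.67 for PSBQ1, 0.88 for PSBS and 0.65 for PSBY. The other pathway genes were FD2 with 1.39, PETE1 with 1.22 and PETM with 1.11 of the electron transport chain, PSB28 with 1.64 and PPL1 with 0.80 of assembly and repair, and CPSRP54 with 0.87 and CPSRP43 with 0.63 of LHC targeting.

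Of these, LHCA6, LHCB2.3, PETE1, PETM and PSB28 passed the threshold whichever single library was left out. The root markers had the highest level in cool Col-0, and 4 of 13 had a higher response in spaQ. When the root marker score entered the fit as a covariate, LHCA6, LHCB2.3, PETE1 and PSB28 passed the threshold, and the other 12 did not.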

How the results depend on the processing

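Of the members called in the Col-0 warm response (36), the spaQ warm response (10), the genotype difference at 22 °C (31) and at 28 °C (22) and the difference of responses (9), leaving out single libraries gave ranges of 26 to 38, 4 to 24, 27 to 33, 19 to 30 and 2 to 19; over all genes the ranges were 5765 to 8438, 1088 to 4024, 5970 to 8503, 4269 to 6346 and 885 to 2838. With the replicate block the members called were 32, 7, 27, 21 and 3, and the calls over all genes were 6688, 1587, 6961, 5003 and 1343. The deviations of libraries with equal numbers had a mean r of -0.043 (2 of 18 pairs over 0.1). This gave no sign of pairing, but with 3 libraries per group it cannot settle whether equal numbers belong together. With the root marker covariate the members called were 5, 14, 25, 30 and 2 in the same order. Over all genes 1344, 2916, 4356, 6858 and 753 were called. The Col-0 warm estimates of LHCA2, LHCA3, LHCB2.2 and LHCB3 were then above 0, at 0.073, 0.10, 0.14 and 0.019. Fitting the compared libraries alone gave 2 members in the spaQ warm response, with 418 of 15850 genes called. The difference of responses gave 3 members with library totals and 5 without the filter, with 1891 of 17841 and 1904 of 25237 genes called. For antenna over core, leaving out LHCB1 and LHCB2 gave warm differences of 0.15 in spaQ and 0.13 in Col-0 and a genotype difference of -0.58 at 22 °C, and equal weights gave -0.46 at 28 °C and -0.54 at 22 °C. For photosystem I over II, leaving out LHCB1 and LHCB2 gave 0.011 in spaQ and -0.00066 in Col-0 for warmth and -0.43 at 28 °C and -0.44 at 22 °C for genotype, and equal weights gave 0.11 at both temperatures. For LHCA over PSA, in alternatives chosen after seeing the data, equal weights gave warm differences of 0.22 in spaQ and 0.10 in Col-0 and genotype differences of 0.28 at 28 °C and 0.16 at 22 °C. The cause was not tested.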
